A study of Mus musculus with 65 samples.

Results

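MEF2A and MEF2D are paralogous transcription factors of the myocyte enhancer factor 2 family, and in the mouse cerebellum both are bound at neuronal regulatory DNA. The question here was how much further H3K27ac, the acetylated histone mark of active promoters and enhancers, fell when both genes were deleted than when Mef2d alone was deleted. The added change of a site is the difference of 2 effects: MEF2AD cKO over MEF2AD Control, minus MEF2D cKO over MEF2D Control, each on a log2 scale of RPM (reads scaled to the deposited library total). The 12 libraries with this contrast, of 65 samples in the series, were the H3K27ac ChIP-seq libraries titled MEF2AD or MEF2D, 3 in each of the 4 groups. All were cerebella of female C57BL/6 mice. The MEF2AD groups were conditional knockouts (cKO) of both genes and their Control mice, and the MEF2D groups were conditional knockouts of Mef2d and their own Control mice. The labels give no Cre driver, floxed allele or age for the ChIP-seq mice and do not say whether animals were pooled, so p-values measure the spread between libraries. Libraries were taken from their titles, and the MEF2AD and MEF2D comparisons share none.

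MEF2 proteins bind an AT-rich consensus as dimers and can recruit either acetyltransferases, which deposit marks such as H3K27ac, or class IIa histone deacetylases, which repress. In granule neurons, the most abundant neurons of the cerebellum, MEF2 factors are known for roles in activity-dependent transcription, synapse number and survival.

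The deposited count table covered 1419 sites of 177 to 881 bp (median 312.0 bp). A MEF2A peak overlapped 198 of them by at least 1 bp, and the other 1221 overlapped a MEF2D peak only. The count filter left 1360 sites to test, of which 186 overlapped a MEF2A peak and 1174 did not. Library totals ran from 12235974 to 48557960 reads in MEF2AD cKO, from 8694657 to 29955170 in MEF2AD Control, from 18063041 to 23424509 in MEF2D cKO and from 14590695 to 18221626 in MEF2D Control. The share of reads within the sites was 0.464% to 0.482% in MEF2AD cKO, 0.620% to 0.669% in MEF2AD Control, 0.514% to 0.550% in MEF2D cKO and 0.648% to 0.693% in MEF2D Control, against 0.0337% and 0.0357% in the 2 inputs. MEF2AD cKO 3 and MEF2AD Control 3 were the shallowest, with medians of 24 and 34 reads per site, and MEF2AD cKO 3 was the lowest of its group at 50 of the 52 sites called below. This library was low beyond the called sites too. Over all 1360 tested sites its mean log2 level was 0.81, against 1.17 and 1.15 in MEF2AD cKO 1 and 2. Values without MEF2AD cKO 3 are given where it decides them.

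Among sites whose levels bear on the result, 3 MEF2A-overlapping sites cover the start of a gene whose promoter holds the MEF2 consensus, and 1 site without a MEF2A peak covers a start and carried one of the largest added falls. Their RefSeq promoters (GRCm38.p6, minus strand, 250 bases before to 50 after the start) are printed to set a promoter with the consensus beside one without. Capitals mark the consensus, counted from the start as +1.
Dusp16, chr6:134792579-134792878, consensus from position -57:
Dusp16: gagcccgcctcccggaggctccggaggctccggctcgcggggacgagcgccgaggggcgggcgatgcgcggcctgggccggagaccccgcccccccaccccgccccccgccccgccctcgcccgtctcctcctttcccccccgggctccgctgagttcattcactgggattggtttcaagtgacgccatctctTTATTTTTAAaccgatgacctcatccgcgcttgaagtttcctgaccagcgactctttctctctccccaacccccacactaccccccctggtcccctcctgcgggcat
Mef2a, chr7:67372809-67373108, consensus from position -2:
Mef2a: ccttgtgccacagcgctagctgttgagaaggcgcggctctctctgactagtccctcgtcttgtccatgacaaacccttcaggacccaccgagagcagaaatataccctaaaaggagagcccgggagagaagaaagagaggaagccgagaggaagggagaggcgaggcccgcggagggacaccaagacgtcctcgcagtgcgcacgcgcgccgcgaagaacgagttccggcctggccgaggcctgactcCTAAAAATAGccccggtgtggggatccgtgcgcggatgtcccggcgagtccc
Hdac5, chr11:102230123-102230422, consensus from position -20:
Hdac5: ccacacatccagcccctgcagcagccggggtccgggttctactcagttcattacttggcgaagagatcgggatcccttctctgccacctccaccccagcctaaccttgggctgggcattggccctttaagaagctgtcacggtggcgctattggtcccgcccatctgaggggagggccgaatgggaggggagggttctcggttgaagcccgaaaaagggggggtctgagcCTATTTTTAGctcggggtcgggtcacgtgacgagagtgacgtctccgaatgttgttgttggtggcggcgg
1700123J17Rik, a start within the span of Sbk1, chr7:126248189-126248488, no match:
1700123J17Rik: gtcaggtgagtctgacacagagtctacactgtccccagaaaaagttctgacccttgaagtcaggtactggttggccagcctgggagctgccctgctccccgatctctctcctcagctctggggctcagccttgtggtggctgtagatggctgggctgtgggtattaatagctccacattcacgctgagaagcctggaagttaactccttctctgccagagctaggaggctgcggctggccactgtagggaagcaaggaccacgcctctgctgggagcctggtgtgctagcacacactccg
The consensus, matched on both strands, was in the promoters of 13 of the 24 genes with a start under a MEF2A-overlapping site (54.2%), in those of 23 of the 81 genes under other sites (28.4%), and in 3.70% of the 27025 genes with a RefSeq promoter. MEF2A-overlapping sites at a start with the consensus had a median added change of 0.09 (12 sites) and those without it -0.04 (10 sites), with 0 called in either. At the other sites the order was reversed, with medians of -0.16 with the consensus (22 sites, 0 called) and 0.01 without it (55 sites, 1 called).

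The mean level was lower in each knockout than in its Control in both classes of site, and the added change averaged -0.30 in each class without passing its test. Over the MEF2A-overlapping sites the mean log2 level was 1.96, 1.90 and 1.51 in MEF2AD cKO libraries 1 to 3, against 2.29, 2.21 and 2.32 in MEF2AD Control. It was 2.06, 2.23 and 2.20 in MEF2D cKO, against 2.31, 2.37 and 2.39 in MEF2D Control. Every library of either knockout lay below every Control library of its line in this class. Over the other sites the level was 1.04, 1.03 and 0.70 in MEF2AD cKO, against 1.82, 1.72 and 1.82 in MEF2AD Control. There it was 1.23, 1.35 and 1.30 in MEF2D cKO, against 1.79, 1.87 and 1.89 in MEF2D Control, and again no knockout library overlapped its Control libraries.

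The MEF2AD effect on the mean level was -0.49 at MEF2A-overlapping sites and the MEF2D effect -0.19, an added change of -0.30 ± 0.16 (SE, n = 3 libraries a group). At the other sites the effects were -0.86 and -0.56, an added change of -0.30 ± 0.13. In an exact two-sided permutation test of line labels within the 6 cKO and within the 6 Control libraries, p was 0.185 for the MEF2A-overlapping sites, 0.115 for the other sites and 0.12 for all sites, where 400 arrangements allow 0.005 at the least. Without MEF2AD cKO 3 the added change was -0.15 at MEF2A-overlapping sites and -0.19 at other sites. Scaling by TMM over the sites in place of library totals moved it to -0.14 and -0.15, with exact p = 0.185 and 0.02.

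**Figure D1:**
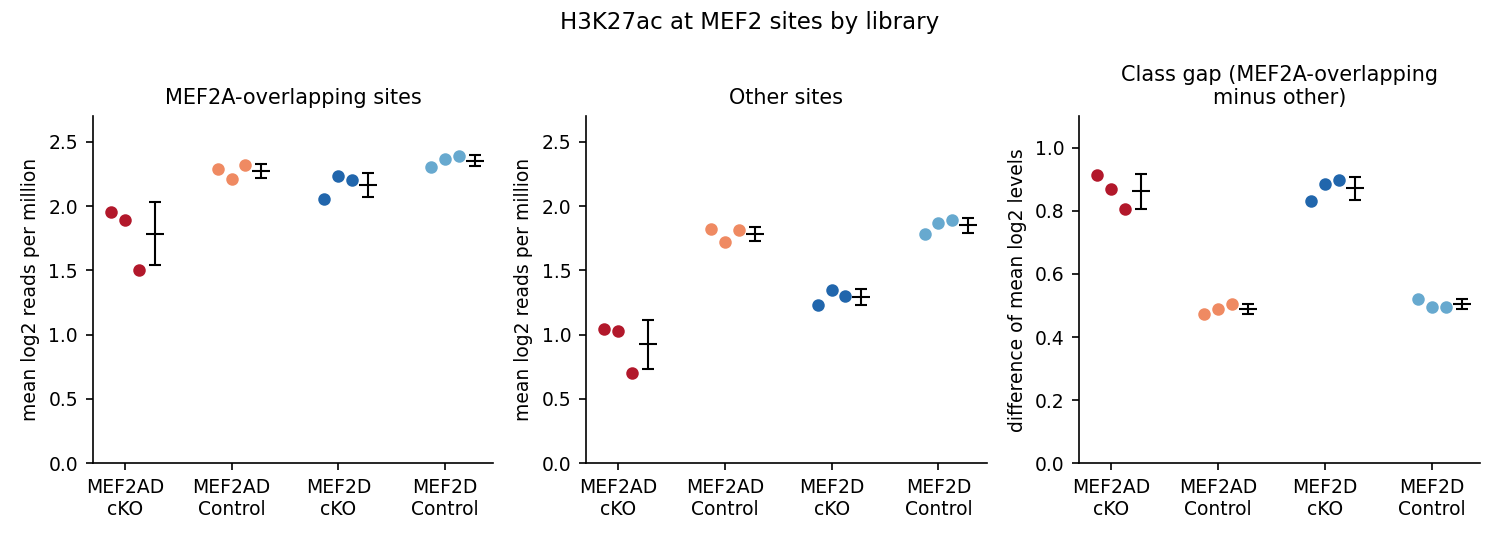
Mean log2 RPM over MEF2A-overlapping sites (left) and other sites (middle), and their difference (right), with 1 point per library, the mean and SD (n = 3) beside them. MEF2AD cKO libraries lay lowest in both classes, and the class gap was 0.805 to 0.914 in MEF2AD cKO and 0.830 to 0.898 in MEF2D cKO.

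The class gap, the mean level of MEF2A-overlapping sites minus that of the other sites within a library, was 0.914, 0.868 and 0.805 in MEF2AD cKO, against 0.474, 0.489 and 0.504 in MEF2AD Control. In MEF2D cKO it was 0.830, 0.886 and 0.898, against 0.522, 0.494 and 0.496 in MEF2D Control. The gap was wider in each knockout than in its Control, by 0.37 in MEF2AD and 0.37 in MEF2D, with the larger effect at the other sites in each, and the knockout libraries of the 2 lines overlapped. The gap of the added change was 0.01 ± 0.04 (SE, exact two-sided permutation p = 0.885, n = 3 a group). The median over sites in place of the mean gave 0.099 (exact permutation p = 0.015), with the smaller fall at MEF2A-overlapping sites. In the third of sites with the lowest level the gap was -0.30 (exact permutation p = 0.225, 30 and 424 sites), the other way round.

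**Figure D2:**
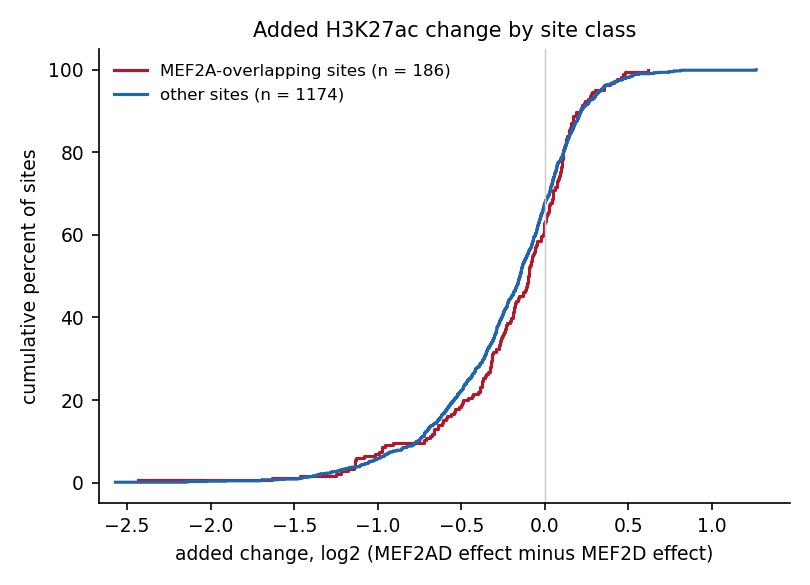
Cumulative percent of sites (vertical) by fitted added change on the log2 scale (horizontal) for 186 MEF2A-overlapping and 1174 other sites. The curves run close together, with medians of -0.10 and -0.15.

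Site by site, 52 of the 1360 tested sites had an added loss and 0 an added gain (edgeR quasi-likelihood test, Benjamini-Hochberg adjusted p under 0.05), which is 3.82% of the sites. At an unadjusted p under 0.05 there were 222 sites. Of the MEF2A-overlapping sites 10 of 186 were called (5.38%), and of the others 42 of 1174 (3.58%). An alternative test, limma-trend on log2 RPM, called fewer sites and no MEF2A-overlapping one. The median fitted added change was -0.10 at MEF2A-overlapping sites, -0.15 at other sites and -0.14 over all tested sites. Under TMM that median was -0.02 and under DESeq2 size factors 0.00, so folds given below include the -0.14 of the median site. For the underlying effects, 54.2% of sites were lower in MEF2AD cKO than in Control (737 sites), with 1.99% higher (27 sites), and 39.6% in MEF2D cKO (539 sites), with 0.441% higher (6 sites). The call count rested on single libraries: it was 10 without MEF2AD Control 1, 25 without MEF2AD Control 2, 24 without MEF2AD Control 3, 30 without MEF2D Control 1, 31 without MEF2D Control 2, 21 without MEF2D Control 3, 13 without MEF2D cKO 2 and 22 without MEF2D cKO 3. It was 60 without MEF2AD cKO 3, and 51 of the 52 kept their call.

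**Figure D3:**
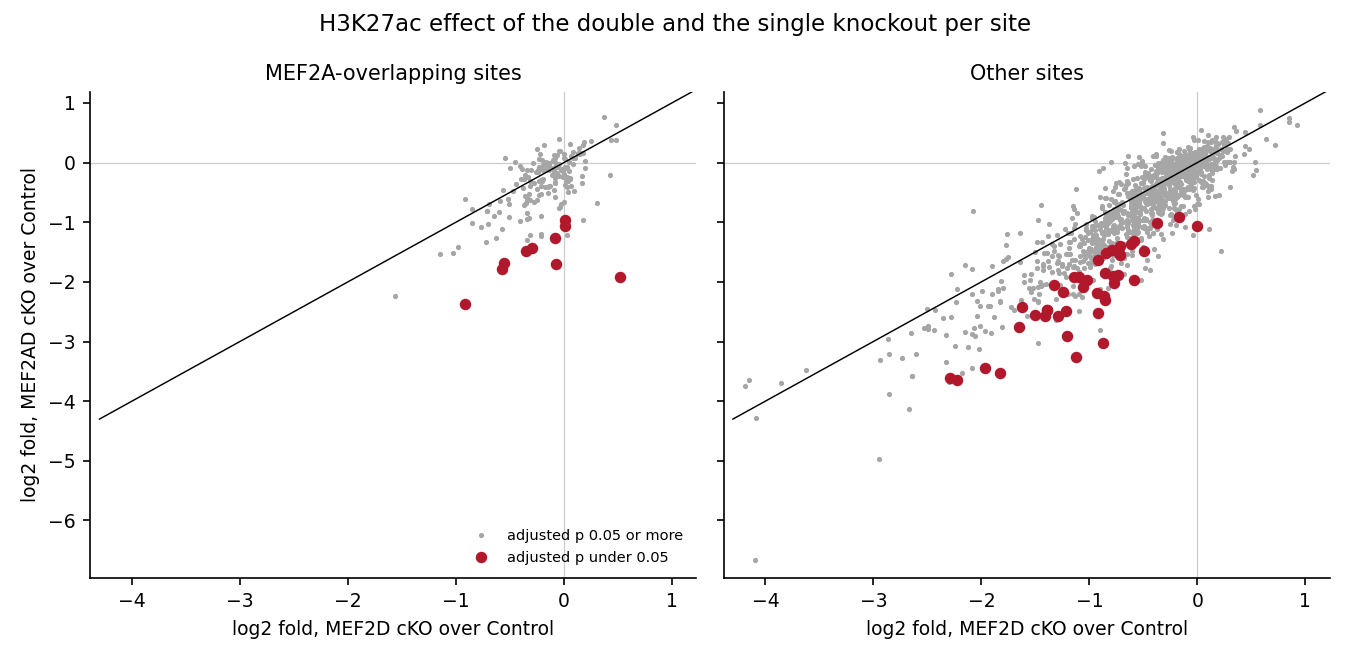
H3K27ac effect of MEF2AD cKO (vertical) against that of MEF2D cKO (horizontal), as fitted log2 folds over each line's Control, for MEF2A-overlapping (left) and other sites (right), with sites of an adjusted p under 0.05 for the added change in red and the line of equal effects. The 52 red sites lie below the line, and at the 10 MEF2A-overlapping ones the MEF2D effect has a median of -0.18 (-0.14 over all 186 sites of the class), against -0.93 at the 42 others (-0.40 over all 1174).

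The MEF2D effect differed between the classes among the called sites and among all sites alike, which is a description since this effect enters the contrast. At the 10 MEF2A-overlapping sites the median MEF2D effect was -0.18 and the median MEF2AD effect -1.59, and 3 of the 10 were lower in MEF2D cKO by the test. At the 42 others the medians were -0.93 and -2.07, and 39 were lower in MEF2D cKO. Over all tested sites the median MEF2D effect was -0.14 at the 186 MEF2A-overlapping sites, of which 17.7% were lower in MEF2D cKO, and -0.40 at the 1174 others, of which 43.1% were. All 52 were lower in MEF2AD cKO than in its Control by the test, and in each the 3 MEF2AD cKO libraries lay below the 3 MEF2D cKO libraries, as they did at 32.7% of all tested sites. The MEF2AD cKO libraries lay below all MEF2AD Control libraries at 51 of the 52 (58.4% of all sites), and the MEF2D cKO libraries below all MEF2D Control libraries at 44 (49.0% of all sites). These orders only describe the called sites and lend them no further weight, since the same libraries entered the test that chose them. In the MEF2A cKO line, which the contrast does not use, the mean log2 difference from Control at the called sites had a median of -0.18 at the 10 and -0.11 at the 42, against -0.11 at all MEF2A-overlapping sites and -0.08 at all sites. Called sites lay within a gene in 29 of 52 cases, against 61.1% of all tested sites. Within 1000 bp of a RefSeq start, 0 of 29 MEF2A-overlapping and 3 of 125 other sites were called, against 6.76% and 3.62% away from starts. At the 3.82% of all tested sites, 29 sites would hold few calls or none, and 125 sites a few. A further 9 MEF2A-overlapping and 54 other sites, on chromosomes without listed starts, are not counted here. The called sites had a mean of 11.5 to 276.3 reads per library (median 80.5).

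The site at Sbk1, which encodes a serine/threonine kinase, and a site beside it gave a called pair 3324 bp apart. At chr7:126248149-126248499, with a MEF2D but no MEF2A peak, H3K27ac was 0.698, 0.762 and 0.163 RPM in MEF2AD cKO, against 6.34, 5.27 and 8.17 in MEF2AD Control. MEF2D cKO had 2.61, 2.88 and 3.12 RPM there, against 6.53, 6.75 and 5.41 in MEF2D Control. MEF2D cKO lay between its Control and MEF2AD cKO, with no overlap. The added change reached -2.13 ± 0.30 (SE, edgeR adjusted p = 7.6e-05), and the call held in all 12 fits that left out 1 library. At the MEF2A-overlapping neighbour, chr7:126251824-126252056, the levels were 3.04, 2.59 and 0.981 in MEF2AD cKO, against 7.27, 6.08 and 6.56 in MEF2AD Control. MEF2D cKO had 5.41, 6.98 and 5.51 RPM there, against 6.34, 7.41 and 8.02 in MEF2D Control, which overlapped. It had an added change of -1.14 ± 0.25 (edgeR adjusted p = 0.0084), with adjusted p = 0.064 without MEF2AD Control 1.

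**Figure D4:**
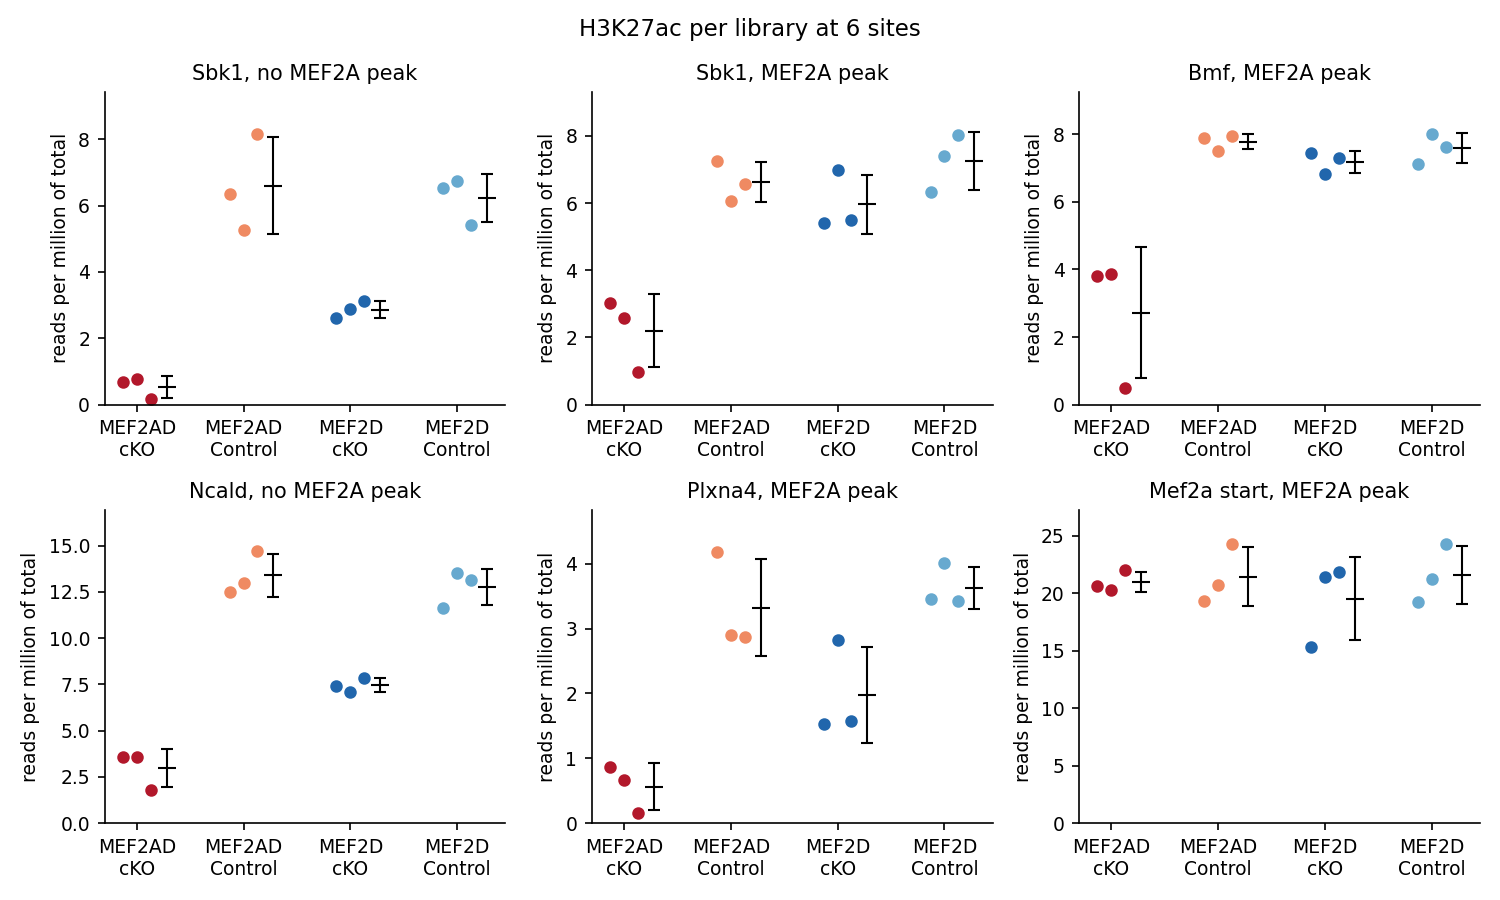
H3K27ac in RPM (vertical) by group at 6 sites, with 1 point per library and the mean and SD (n = 3). At Sbk1 and Ncald without a MEF2A peak MEF2D cKO lies between its Control and MEF2AD cKO, at Bmf only MEF2AD cKO is low, and at the Mef2a start the groups overlap.

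Bmf, which encodes a BH3-only protein that promotes apoptosis, showed the contrast between the lines in both assays. Its MEF2A-overlapping site at chr2:118540882-118541160, within the gene and 3427 bp from a start, had 3.80, 3.87 and 0.490 RPM in MEF2AD cKO, against 7.88, 7.51 and 7.94 in MEF2AD Control. MEF2D cKO had 7.43, 6.81 and 7.30, against 7.12, 8.01 and 7.61 in MEF2D Control. MEF2AD cKO lay below the other 3 groups, whose libraries ran from 6.81 to 8.01, MEF2D cKO overlapped its Control, and MEF2AD cKO 3 lay far below its replicates. Its added change came to -1.18 ± 0.29 (edgeR adjusted p = 0.019) and -0.93 (edgeR adjusted p = 0.00017) without MEF2AD cKO 3. The call was lost without MEF2AD Control 1 (adjusted p = 0.070), MEF2AD Control 3 (0.051), MEF2D Control 3 (0.059) or MEF2D cKO 3 (0.054), and DESeq2 gave 0.35.

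At 2 other called MEF2A-overlapping sites, in Rapgef2 and near Ube2d1, the MEF2D effect was 0.01. In Rapgef2, which encodes an exchange factor for Rap GTPases, the levels were 3.28, 3.19 and 1.55 in MEF2AD cKO and 5.79, 6.01 and 4.95 in MEF2AD Control, while MEF2D cKO had 5.61, 6.86 and 6.75 and MEF2D Control 6.60, 7.24 and 5.14. MEF2AD cKO lay below every other library, and the MEF2D groups overlapped. Its added change was -0.97 ± 0.23 (edgeR adjusted p = 0.016), lost in 5 of 12 fits that left out a library. The site 4351 bp from Ube2d1, a ubiquitin-conjugating enzyme gene, had an added change of -1.08 ± 0.28 (edgeR adjusted p = 0.028) and a MEF2D effect of 0.01, with the call lost in 7 of 12 such fits and a DESeq2 adjusted p of 0.25. In Plxna4, a semaphorin receptor gene, the levels were 0.872, 0.659 and 0.163 in MEF2AD cKO and 4.18, 2.90 and 2.88 in MEF2AD Control, while MEF2D cKO had 1.53, 2.82 and 1.58 and MEF2D Control 3.46, 4.01 and 3.43. Each knockout lay below its Control there with no overlap, and MEF2AD cKO lay lowest. The added change was -1.47 ± 0.37 (edgeR adjusted p = 0.024), with a MEF2D effect of -0.91, and was lost without MEF2AD Control 1 (0.12), MEF2AD cKO 2 (0.058), MEF2D Control 3 (0.065) or MEF2D cKO 2 (0.11). The remaining called MEF2A-overlapping sites were in or near Manba (11.5 reads a library), Ywhaq, Dot1l, Inpp4b and Strada, with added changes of -2.43, -1.63, -1.22, -1.14 and -1.13, and kept their calls in 5, 4, 5, 4 and 4 of the 12 fits. The sites in Fggy and Magi2, also among the lowest fitted values of the class, did not pass, with -1.25 ± 0.37 (edgeR adjusted p = 0.050004) and -1.14 ± 0.47 (adjusted p = 0.193). No called MEF2A-overlapping site kept its call in all 12 fits, against 9 of the 42 others.

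At those 9 sites both knockouts were lower than Control by the test. Near Meltf, which encodes the iron-binding melanotransferrin, the levels were 0.314, 0.597 and 0.0817 RPM in MEF2AD cKO and 3.39, 3.51 and 3.91 in MEF2AD Control, while MEF2D cKO had 1.77, 2.33 and 2.09 and MEF2D Control 3.59, 3.9 and 3.84. MEF2D cKO lay between MEF2AD cKO and the Control groups, with no overlap. The added change was -2.15 ± 0.34 (edgeR adjusted p = 0.00022). In Macrod2, an ADP-ribosylhydrolase gene, the levels were 0.733, 0.597 and 0.327 in MEF2AD cKO and 6.85, 6.31 and 6.79 in MEF2AD Control, while MEF2D cKO had 1.82, 1.66 and 1.66 and MEF2D Control 6.53, 7.08 and 6.44. The order was the same, again with no overlap. Its added change was -1.49 ± 0.27 (edgeR adjusted p = 0.0016). In Ncald, the gene of the neuronal calcium sensor neurocalcin delta, the levels were 3.56, 3.58 and 1.80 in MEF2AD cKO and 12.5, 13 and 14.7 in MEF2AD Control, while MEF2D cKO had 7.43, 7.09 and 7.86 and MEF2D Control 11.6, 13.5 and 13.2. The order held here too, with no overlap, and Ncald had an added change of -1.24 ± 0.19 (edgeR adjusted p = 0.00017). A second Ncald site 7173 bp away was also called, with -0.80 ± 0.23 (edgeR adjusted p = 0.045), but kept the call in 1 of 12 fits that left out a library. The others of the 9 were in or near Ap3m2, Gse1, Lemd1, Tex44, Dhrs2 and Sbk1, with added changes from -1.28 to -0.93 apart from Sbk1 above. Ncs1, another neuronal calcium sensor gene, had the most reads of the called sites (276.3 a library) and an added change of -0.72 ± 0.17 (edgeR adjusted p = 0.016), lost without MEF2AD Control 1 (0.053).

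Of the remaining sites named by size, those in or near Phlpp1, Bckdhb, Brd1, Klf7, Inpp4a, Hsd17b12 and Ptchd4 had added changes of -1.70, -1.69, -1.60, -1.44, -1.42, -1.37 and -1.36. Of the 12 fits that left out a library, those in which the call held numbered 5, 11, 7, 3, 2, 10 and 2 in the same order. Under TMM the sites of Klf7, Inpp4a and Ptchd4 lost it (edgeR adjusted p = 0.066, 0.069 and 0.087). Gene names give the gene that holds the site or the nearest one, up to 224449 bp away among these sites, for Ptchd4. A second called site named for Bckdhb lay 284551 bp from that gene. Neighbouring sites were called in 5 pairs within a locus, at Sbk1, Ncald, Inpp4b, near Dhrs2 and near Bckdhb, the widest of them 229217 bp apart.

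At the MEF2A-overlapping sites at the other end of the ranking, none passed the test: the highest fitted values were near Ptpro (0.62), in Inpp4a (0.48), near Utrn (0.47) and in Ralyl (0.46), with edgeR adjusted p of 0.576, 0.186, 0.440 and 0.220. Inpp4a, which encodes a phosphatidylinositol phosphatase, held a called fall without a MEF2A peak and a positive value with one that did not pass. At the Mef2a start, the levels were 20.7, 20.3 and 22 in MEF2AD cKO and 19.3, 20.7 and 24.3 in MEF2AD Control, while MEF2D cKO had 15.4, 21.4 and 21.8 and MEF2D Control 19.2, 21.2 and 24.3. All groups overlapped there, and the added change was 0.13 ± 0.15 (edgeR adjusted p = 0.766). The Hdac5 start, the promoter of a class IIa deacetylase gene, had an added change of -0.11 ± 0.20 (adjusted p = 0.865), and 0.02 under TMM. The Dusp16 start had 0.837, 0.762 and 0.409 RPM in MEF2AD cKO and 1.1, 1.3 and 1.04 in MEF2AD Control, while MEF2D cKO had 1.38, 1.22 and 1.96 and MEF2D Control 1.11, 1.43 and 1.17. MEF2AD cKO lay below its Control with no overlap, and the MEF2D groups overlapped. Its added change of -0.99 ± 0.39 did not pass (edgeR adjusted p = 0.161).

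The counts for gene groups are to be read against the 3.82% of all tested sites that were called, at which lists of this size would hold few calls or none. Of 11 sites of textbook MEF2 target genes 0 were called, with 2 at an unadjusted p under 0.05 (edgeR) and a median of -0.08, against -0.14 over all sites. Of 15 sites of activity-regulated genes such as Fos and Nr4a1, 0 were called at either threshold, with a median of 0.15. Genes of calcium signalling had 20 sites, of which 2 were called, both in Ncald, with a median of -0.34. Of 21 sites of synaptic vesicle and adhesion genes 0 were called, with 2 at an unadjusted p under 0.05 and a median of 0.10. Potassium channel genes had 13 sites (0 called, 1 at an unadjusted p under 0.05, median -0.30), glutamate and GABA receptor genes 7 (0 and 0, median 0.12), MEF2 family and class IIa deacetylase genes 11 (0 and 1, median -0.11) and matrix and protease genes 5 (1 called, near Emilin3, median -0.10). Granule neuron marker genes had 12 sites with 0 called at either threshold and a median of -0.08, and markers of interneurons, astrocytes, oligodendrocytes, microglia and endothelial cells had 0 tested sites.

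The authors had also deposited 90 sites grouped by the RNA cluster of a nearby gene. Of the 64 matched sites of cluster 4, 12 were called (18.8%, against 3.82% of all tested sites), with a median added change of -0.35, against -0.14 over all sites. In cluster 3 it was 1 of 17, with a median of -0.21, and in cluster 2 it was 0 of 8, with a median of -0.06. RNA of the 112 genes of cluster 4 had a median added change of -0.29 and those of cluster 2 of 0.18. The clusters were drawn by the authors from RNA of these lines, so they are not independent of the RNA values below.

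RNA of the same 4 genotypes was measured in 16 other libraries, 4 a group, from female mice at postnatal day 22. Their titles carry the word Rotarod, which the H3K27ac titles lack, so the assays may differ in more than the readout. Mef2a served as the check of the labels: it had 89.3, 98.0, 88.8 and 99.4 CPM in MEF2AD cKO, against 191, 194, 196 and 184 in MEF2AD Control. MEF2D cKO had 229, 219, 245 and 236 CPM, against 194, 205, 217 and 222 in MEF2D Control. MEF2AD cKO lay far below its Control, and the MEF2D groups overlapped. The added change of Mef2a on log2(CPM + 1) was -1.17 ± 0.07 (SE, limma adjusted p = 7.1e-08). Mef2d was not lower in either knockout, with a MEF2AD effect of 0.30 (limma adjusted p = 0.0010) and a MEF2D effect of 0.19 (adjusted p = 0.026). The deleted exons are not given in the labels, and a total per gene does not check them.

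Over all 15469 genes 19 were lower and 3 higher in the added change (limma adjusted p under 0.05), 0.123% and 0.0194%. The MEF2AD effect called 1.43% of genes lower and 1.06% higher, and the MEF2D effect 2.31% lower and 3.11% higher. Of the 160 measured genes of MEF2A-overlapping sites 9 were lower (5.62%), and of the 882 genes of other sites 8 were lower (0.907%). Mef2a, deleted in MEF2AD cKO but not in MEF2D cKO, was among the 19 and among the 9. Genes with sites of both classes, such as Klf7, counted in both. Of the 41 measured genes of called H3K27ac sites 2 were lower, Bmf and Klf7 (4.88%), against 15 of the 983 genes of all tested sites (1.53%). The median RNA change over these 41 genes was -0.10, against 0.00 over the 983 genes of all tested sites and -0.02 over all genes. For most genes of called sites the added loss of H3K27ac thus came with no called added change of RNA. In the MEF2AD effect on RNA (limma adjusted p under 0.05) 15 of the 41 genes were lower and 0 higher, against 116 and 32 of the 983. By the same test of the MEF2D effect 9 of the 41 were lower and 4 higher, against 109 and 36 of the 983.

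Bmf RNA was 11.7, 11.4, 9.41 and 12.7 CPM in MEF2AD cKO and 18.9, 18.1, 17.1 and 17.6 in MEF2AD Control, while MEF2D cKO had 16.7, 16.3, 20.2 and 18 and MEF2D Control 12.5, 13.6, 14.8 and 13.7. It was below Control in MEF2AD cKO and above Control in MEF2D cKO, with no overlap within a line, and the added change was -0.99 ± 0.12 (limma adjusted p = 0.00063). Between the lines, MEF2AD Control lay above MEF2D Control with no overlap, and MEF2AD cKO overlapped MEF2D Control. Klf7, a Kruppel-like factor gene of neurons, had 73.4, 74.1, 68.7 and 71.4 CPM in MEF2AD cKO and 76.0, 81.5, 85.6 and 88.5 in MEF2AD Control, while MEF2D cKO had 111, 109, 96.1 and 108 and MEF2D Control 90.9, 89.7, 82.1 and 89.2. MEF2AD cKO lay below its Control and MEF2D cKO above its own, with no overlap within a line. Its added RNA change was -0.47 ± 0.08 (limma adjusted p = 0.011), while its called site lay 100341 bp from the gene and kept its call in 3 of 12 fits. Sbk1 RNA had an added change of 0.04 ± 0.10 (limma adjusted p = 0.962) and Plxna4 one of 0.07 ± 0.09 (adjusted p = 0.920). Ncald RNA was lower in both knockouts, with a MEF2AD effect of -1.21 (limma adjusted p = 8.5e-06) and a MEF2D effect of -0.97 (adjusted p = 0.00019), and an added change of -0.24 ± 0.17 that did not pass (adjusted p = 0.774).

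**Figure D5:**
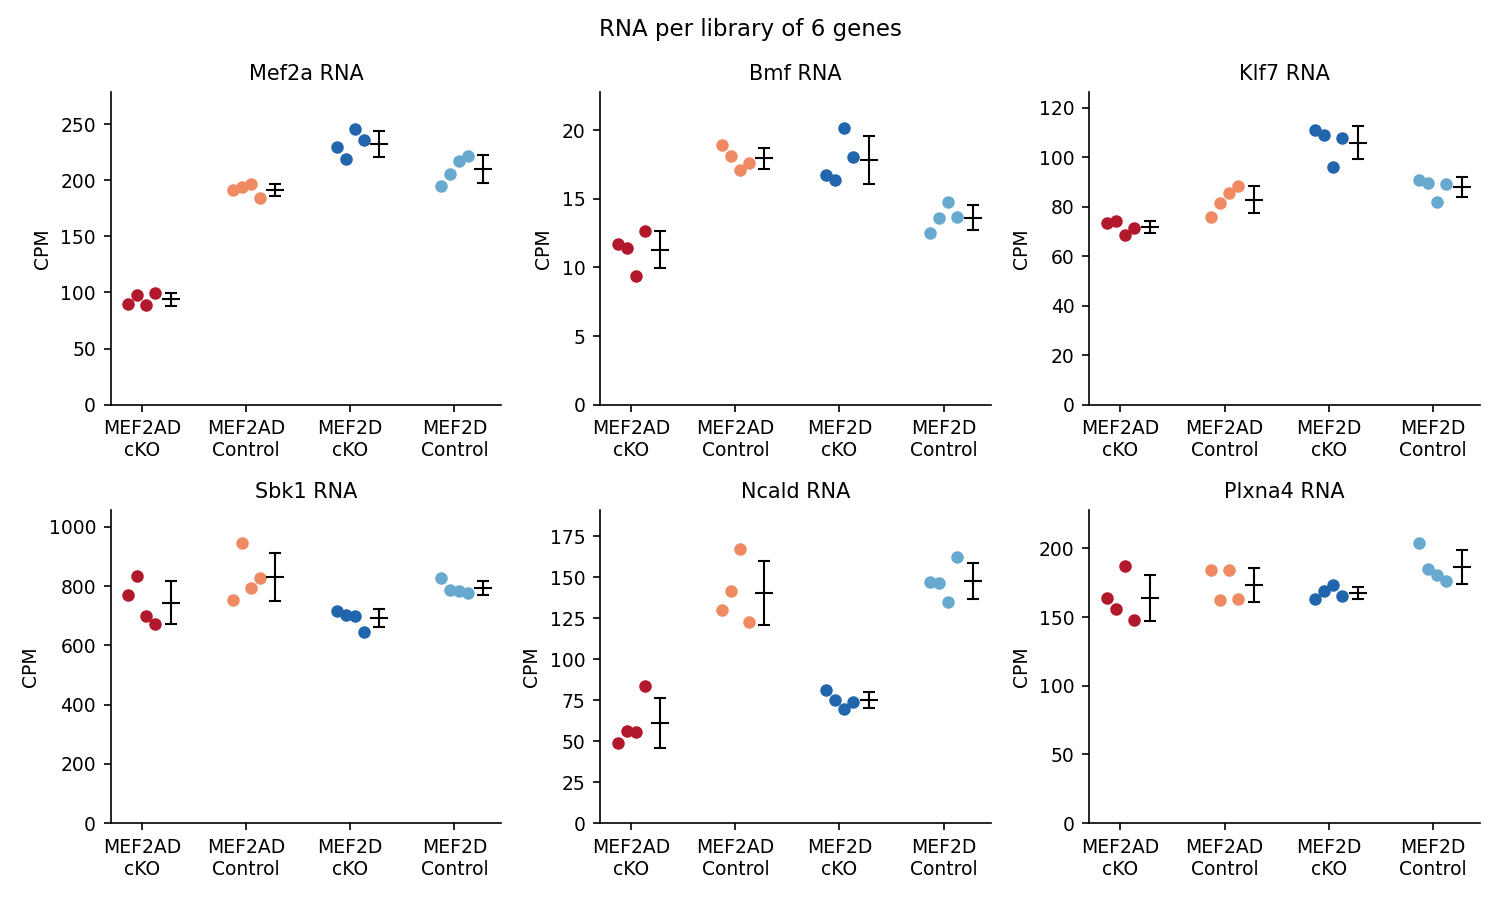
RNA in CPM (vertical) by group for 6 genes, with 1 point per library and the mean and SD (n = 4). Mef2a, Bmf and Klf7 passed the test of the added change, with MEF2AD cKO lowest of the 4 groups, and Sbk1, Ncald and Plxna4 did not.

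Read from the RNA side, the 19 lower genes held 20 tested sites of 15 genes, of which 2 were called, against 3.82% of all sites, and 17 had a fitted value below 0, against 911 of all 1360 sites. Their median added change was -0.53, against -0.14 over all sites. The 9 MEF2A-overlapping sites among them had a median of -0.62, with a MEF2AD effect of -0.66 and a MEF2D effect of -0.08, and 1 of the 9 was called, that of Bmf. The start of Mef2a, itself deleted in MEF2AD cKO, was also among the 9, with an added change of 0.13. In Peak1, a pseudokinase gene, the levels of H3K27ac were 2.48, 1.69 and 0.327 in MEF2AD cKO and 4.04, 4.21 and 3.57 in MEF2AD Control, while MEF2D cKO had 3.84, 3.04 and 3.16 and MEF2D Control 4.70, 4.01 and 3.77. MEF2AD cKO lay below all other libraries, and the MEF2D groups overlapped. Its H3K27ac change of -0.91 ± 0.32 did not pass (edgeR adjusted p = 0.110), while its RNA change was -0.76 ± 0.12 (limma adjusted p = 0.0070). Dusp16, a MAP kinase phosphatase gene, had an RNA change of -0.97 ± 0.13 (limma adjusted p = 0.00095). Tll1, an astacin metalloprotease gene, had RNA at -0.997 ± 0.12 (limma adjusted p = 0.00033). Its MEF2A-overlapping site, at 0.14 ± 0.18, did not pass (edgeR adjusted p = 0.787), and its sign is not settled. Bbc3, another BH3-only gene, had RNA at -1.02 ± 0.17 (limma adjusted p = 0.011) and a site at -0.28 ± 0.26 (edgeR adjusted p = 0.686). Not every lower gene fell in MEF2AD cKO: Elavl2, a neuronal RNA-binding protein gene, rose in both lines, with a MEF2AD effect of 1.15 and a MEF2D effect of 2.86.

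Marker levels in the RNA libraries bear on the cell mixture, since in whole cerebellum fewer cells of a type and less mark per cell cannot be told apart. The summed CPM of 17 granule neuron genes was 9018 to 11098 in MEF2AD cKO and 8897 to 10822 in MEF2AD Control, against 11881 to 12063 in MEF2D cKO and 11490 to 12158 in MEF2D Control. That of 10 oligodendrocyte genes was 8545 to 12260 in MEF2AD cKO and 10502 to 13702 in MEF2AD Control, against 8365 to 9076 in MEF2D cKO and 7938 to 10471 in MEF2D Control. The 6 choroid plexus genes ranged from 21.1 to 1523 CPM within MEF2AD cKO and from 280.2 to 1825 within MEF2AD Control, against 19.2 to 1239 within MEF2D cKO and 17.6 to 1387 within MEF2D Control. The part of these differences in the added change was not tested, and the ChIP-seq libraries hold no such markers.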

How the data were processed

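H3K27ac values were read counts per site that the authors deposited without normalization, with each library's total above them, per the file headers. RNA values were log2 CPM deposited by the authors, from which whole reads were recovered for 100.0% of values (tolerance 0.05 reads) over 15469 genes, after 91 repeated identifiers were dropped. Recovered reads ran from 9178139 to 23160475 per library. Per the submitters' processing notes, the tools were Bowtie2 2.3.4.2, MACS2 and STAR 2.6, and the build was mm10. How reads were counted and peaks filtered is not stated in these notes. Peak lists gave 203 MEF2A and 1388 MEF2D intervals. A further 82 per-sample columns were not used.

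Sites were tested with edgeR 4.0.16 (R 4.3.3; quasi-likelihood, deposited library totals as library sizes, edgeR's low-count filter, 4 group means), and errors of log2 folds are the fold over the root of F. Class means used log2 RPM (reads scaled to the library total) with 0.5 reads added. RNA was tested with limma 3.58.1 (trend) on log2(CPM + 1), CPM being recovered reads scaled to the library. Adjusted p-values are Benjamini-Hochberg over all sites or genes tested, at 0.05. Alternatives were DESeq2 1.42.0, other scalings, filters and priors, each library left out, and edgeR on the recovered RNA reads, chosen after seeing the data. The scripts were tested on simulated data with known changes.

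Genes were assigned by RefSeq span (the shortest protein-coding gene that holds the site, otherwise the nearest) in place of the planned nearest start, because the table of starts is not complete. Coordinates are mm10, 1-based, and promoter sequences are RefSeq's of GRCm38.p6, matched by symbol. Named sites follow 1 rule: the 12 largest called falls and up to 8 rises with a mean of at least 20 reads, the 8 largest falls and 4 largest rises at MEF2A-overlapping sites, and the sites with the highest level of each gene list. Other sites, among them those of Dusp16, Peak1, Bbc3, Manba, Strada, Ncs1, Rapgef2, Ube2d1, Ap3m2, Gse1, Lemd1, Tex44, Dhrs2 and the second Ncald site, and the 1700123J17Rik promoter, were chosen after their values were seen. Members and lists were chosen with earlier results of these data known. Same-numbered libraries are not stated to share an animal, litter or day. Counting error is largest in the shallowest libraries, the MEF2AD ones numbered 3. MEF2AD cKO 3 also differed from its replicates beyond counting error. Chi-square per degree of freedom was 3.10 and 2.90 in its pairs, against 1.14 to 1.48 in all other pairs within a group. In the pairs of MEF2AD Control 3 it was 1.21 and 1.18. The cause was not tested.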

Additional observations from a re-analysis of the deposited data

Results flagged for a closer look

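The effects of the 2 lines differed at 52 sites (edgeR test of the difference itself, adjusted p under 0.05). Among the sites named by the rule the difference, MEF2AD effect minus MEF2D effect on the log2 scale, was -2.15 near Meltf, -2.13 and -1.14 at the 2 sites in Sbk1, -1.70 near Phlpp1, -1.69 near Bckdhb, -1.63 near Ywhaq and -1.60 near Brd1. It was -1.49 in Macrod2, -1.47 in Plxna4, -1.44 near Klf7, -1.42 in Inpp4a, -1.37 in Hsd17b12 and -1.36 near Ptchd4. It was -1.24 in Ncald, -1.22 near Dot1l, -1.18 in Bmf, -1.14 in Inpp4b and -0.64 near Emilin3. In RNA the 2 lines' effects differed (limma test of the difference) for Mef2a by -1.17, Tll1 by -0.997, Bmf by -0.99, Prune2 by -0.49 and Klf7 by -0.47.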

How the results depend on the processing

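The count of 52 sites was 29 under TMM over the sites, 28 under DESeq2 size factors, 33 with DESeq2 on library totals, 8 with limma-trend and 80 with all 6 H3K27ac groups in the fit. The 8 sites of limma-trend all lacked a MEF2A peak. Leaving out 1 library gave 10 to 63 sites. TMM and DESeq2 size factors each called 1 rise, near Dguok. With the replicate block 62 sites were called, 49 of them shared, and 43 RNA genes in place of 22 (32 lower, 11 higher). These values could not settle whether same-numbered libraries were paired. Correlations of same-numbered deviations ran from -0.00 to 0.12 in H3K27ac and from -0.20 to 0.30 in RNA. In both assays some libraries correlated best with their own number and others with a different one. The class gap of the added change, 0.01 in the report, was 0.01 with the block as well (exact p = 1), 0.099 with the median over sites, -0.302 and -0.021 at the sites of low and of high level, -0.00752 at starts and -0.021 away from starts, and ran from -0.018 to 0.044 without 1 library. The added change was -0.15 at other sites and -0.15 at all sites under TMM, and -0.12 and -0.12 under DESeq2 size factors, past the threshold in each (exact permutation p = 0.020 to 0.030). Without 1 library it ran from -0.380 to -0.147 at MEF2A-overlapping sites, from -0.363 to -0.191 at other sites and from -0.365 to -0.185 at all sites. Counts of MEF2AD and MEF2D effects were 647 to 771 and 437 to 631. RNA gave 17 to 35 genes without 1 library, 35 of them without MEF2AD cKO 4, and edgeR on recovered reads gave 17. Uncalled sites that changed sign were Hdac5 (0.041 under DESeq2 size factors, 0.022 under TMM, -0.315 to 0.014 without 1 library), Nr4a3 (0.065, 0.041 and -0.220 to 0.0035 likewise), Ptch1 (0.023 without both MEF2AD libraries numbered 3), Ttr (-0.044 without these, -0.177 to 0.174 without 1 library) and Mef2a (-0.016 to 0.222 without 1 library). Over 53 named sites, 924 of 1060 alternative values kept direction and side. The causes were not tested. The medians of 24 and 34 reads per site in MEF2AD cKO 3 and MEF2AD Control 3 limit the precision at single sites.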
